A study of Mus musculus with 16 samples.

Results

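A set of 6 genes that act on the mineralization of extracellular matrix was followed in the RNA of mouse fibroblast protrusions and cell bodies: Mgp, Spp1, Enpp1, Ank, Slc20a1 and Slc20a2. Of these 6 genes, 5 were among the 13015 genes of the table, and Enpp1 has no row in the table used here. Mgp was chosen by its own change, since among 10292 genes with a mean log2 CPM (log2 of counts scaled to library size) of at least 1 it had the largest siAPC over siControl ratio in cell bodies, 6.97 on the log2 scale. The next genes in that order were Aldh1a1 at 6.50 and Ccr7 at 4.34. The other members were chosen for their roles beside Mgp, with results of the same libraries already known. Values of Mgp, and those of every member for siAPC against siControl in cell bodies, are therefore given as descriptions with no test.

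The libraries came from NIH/3T3 cells, an established mouse embryonic fibroblast line, transfected with a negative control siRNA (siControl) or with siRNAs against Apc (siAPC). Each siRNA group was split into protrusions (Ps), the material below a porous filter, and cell bodies (CB), the material above it, with 4 libraries in each of the 4 groups. The fractions were isolated differently, since by the methods of the study more filters were used for Ps than for CB and opposite sides of the filter were cleared. The steps that follow were common to all 16 libraries. Serum was withdrawn before the assay, and the filter had a pore size of 3.0 µm. The attachment period was 2 h and the period with lysophosphatidic acid, a lipid attractant, below the filter was 1 h. Paraformaldehyde at 0.3% was the fixative, for 10 min. No other cell line and no other set of siRNAs against Apc entered these groups, so loss of Apc RNA and any other effect of these siRNAs cannot be told apart.

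The libraries held 13466225 to 20296087 reads over the listed genes. Apc, a scaffold that takes part in β-catenin degradation and in RNA localization, went from a mean log2 CPM of 2.61 to 0.93 in CB, a difference of -1.67 (SE 0.25, adjusted p = 0.000142), and from 3.53 to 1.68 in Ps, a difference of -1.84 (SE 0.25, adjusted p = 3.11e-05). These and all later adjusted p-values came from limma on log2 CPM with Benjamini-Hochberg adjustment over all genes. Each library was set against the other replicates of its group, and the library whose expression fell most with GC content was taken per group. These 4 libraries were siControl CB replicate 3, siControl Ps replicate 2, siAPC CB replicate 2 and siAPC Ps replicate 2 (Spearman's rho across 9878 genes from -0.645 to -0.525). In the other libraries rho ran from -0.039 to 0.535, so trends of like size in the other direction remained among them. Trends within a group are not independent, since its libraries were set against each other. Without the 4 libraries whose expression fell with GC content every tested call on a member stood. All 9 fibroblast markers were listed, and their summed level was 40700 to 42900 CPM in siControl CB, 19100 to 22000 in siControl Ps, 52500 to 56100 in siAPC CB and 27400 to 29100 in siAPC Ps. Of 6 osteoblast markers only Alpl was listed, with Bglap, Bglap2, Ibsp, Sp7 and Dmp1 not listed, and its level was 0 in every siControl library and at most 1.42 CPM in siAPC. Macrophage markers, of which 4 of 7 were listed and Ptprc, Adgre1 and Itgam were not, summed to 14.6 to 21.9 CPM over the siControl libraries and 31.6 to 36.7 CPM over the siAPC libraries. Smooth muscle markers, 4 of 6 listed, summed to 352 to 434 CPM in siControl and 838 to 929 CPM in siAPC. The part of these markers in the results below was not tested.

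Matrix Gla protein, the product of Mgp, is a small secreted protein that holds back calcification of arteries and cartilage. It is made active by vitamin K dependent carboxylation of glutamate residues, and it also binds bone morphogenetic proteins. Osteopontin, encoded by Spp1, is a phosphorylated acidic protein that coats mineral and binds integrins through an Arg-Gly-Asp motif. The pyrophosphate arm of the system rests on Enpp1, which makes extracellular pyrophosphate from ATP, and on Ank, which exports ATP and pyrophosphate from the cell, since pyrophosphate blocks the growth of hydroxyapatite crystals. Slc20a1 (PiT1) and Slc20a2 (PiT2) are sodium-dependent transporters that bring phosphate into the cell.

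The coding sequence of Mgp and the integrin-binding stretch of Spp1 are shown because the activities of both secreted proteins lie in them. Both were read from GENCODE M21 transcripts (GRCm38, the assembly also called mm10). The first 100 of the 104 codons of Mgp were spliced from the minus strand over chr6:136872659-136875730, and capitals mark the 8 in-frame GAA and GAG codons for glutamate, the residue that vitamin K dependent carboxylation modifies.

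Mgp coding sequence: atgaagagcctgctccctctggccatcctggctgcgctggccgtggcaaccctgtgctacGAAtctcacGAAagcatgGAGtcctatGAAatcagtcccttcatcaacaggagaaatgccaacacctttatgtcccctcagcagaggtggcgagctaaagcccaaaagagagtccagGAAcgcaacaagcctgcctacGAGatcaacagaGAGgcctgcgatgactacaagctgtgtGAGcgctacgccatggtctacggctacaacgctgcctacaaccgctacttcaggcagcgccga

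Codons 125 to 164 of the 295 codons of Spp1 lie on the plus strand at chr5:104439421-104439540, and capitals mark the single in-frame Arg-Gly-Asp run of the coding sequence, which starts at codon 145.

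Spp1 coding stretch: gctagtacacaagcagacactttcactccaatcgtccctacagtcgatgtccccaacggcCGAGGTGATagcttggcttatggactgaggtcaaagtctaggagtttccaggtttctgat

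Spp1 and Slc20a1, the members whose siAPC over siControl change in Ps passed the test with a higher level, are also shown by their promoters, from 250 bases before to 50 bases after a RefSeq start (GRCm38.p6). RefSeq promoters were matched for Spp1, Slc20a1, Ank and Enpp1, and the first of the 2 entries is printed for Spp1 and for Slc20a1. Capitals mark matches on either strand to the letters of known motifs, and no match in these windows overlapped another. The TCF/LEF letters searched were CTTTG followed by a pair of bases that are each A or T. Those of the E-box were CACGTG and those of the TATA box were TATAAA. For RUNX the letters were AACCACA. For AP-1 they were TGANTCA.

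Spp1 promoter, plus strand, chr5:104434861-104435160: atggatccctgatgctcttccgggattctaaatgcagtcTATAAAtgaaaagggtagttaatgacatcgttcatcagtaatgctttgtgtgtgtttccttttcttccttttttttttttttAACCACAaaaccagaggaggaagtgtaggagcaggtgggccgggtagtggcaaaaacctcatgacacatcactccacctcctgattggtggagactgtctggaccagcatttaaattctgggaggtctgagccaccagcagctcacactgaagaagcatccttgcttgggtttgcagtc

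Slc20a1 promoter, plus strand, chr2:129198523-129198822: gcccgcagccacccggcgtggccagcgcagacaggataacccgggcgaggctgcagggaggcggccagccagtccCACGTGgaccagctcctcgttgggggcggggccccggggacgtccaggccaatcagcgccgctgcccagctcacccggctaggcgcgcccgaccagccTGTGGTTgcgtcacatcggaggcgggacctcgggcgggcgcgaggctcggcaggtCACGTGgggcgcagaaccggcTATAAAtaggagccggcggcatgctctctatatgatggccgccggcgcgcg

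The Spp1 window held 1 TATA box match and 1 RUNX match. The Slc20a1 window held 2 E-box matches, 1 TATA box match and 1 RUNX match on the other strand. The TCF/LEF letters were in neither printed window and occurred once in the second Spp1 entry (chr5:104435942-104436241). Among 32851 RefSeq promoters of this length, 16.9% held the TCF/LEF letters, 7.2% the E-box, 13.6% the TATA box, 5.3% the RUNX letters and 7.8% the AP-1 letters. Among the 11737 of them that belong to genes of the table, from which both genes came, the shares were 11.3% for TCF/LEF, 10.0% for the E-box, 6.9% for the TATA box, 3.5% for RUNX and 5.2% for AP-1. The printed Slc20a1 window had a GC content of 73.0% and the printed Spp1 window 45.3%.

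Mgp (ENSMUSG00000030218.2, chr6:136872435-136875823, minus strand, overlapping no other gene) was close to the detection floor in siControl and abundant in siAPC. In siControl CB its log2 CPM was -0.98, -1.39, -0.78 and 0.07 in replicates 1 to 4, from 6 to 19 reads, with a mean of -0.77 ± 0.62 (SD, n = 4). In siControl Ps it was -0.39, -1.15, 0.21 and 0.53, from 5 to 20 reads, with a mean of -0.20 ± 0.74 (SD, n = 4). The siControl fractions overlapped in level. In siAPC CB the values were 5.92, 5.92, 6.38 and 6.58, from 1183 to 1678 reads (mean 6.20 ± 0.33, SD, n = 4). In siAPC Ps they were 6.44, 6.46, 7.10 and 7.28, from 1311 to 2605 reads (mean 6.82 ± 0.43, SD, n = 4). Every siAPC library thus lay above every siControl library. The siAPC over siControl difference was 6.97 in CB (SE 0.32, 125-fold) and 7.02 in Ps (SE 0.32, 130-fold), the fourth highest of all 13015 genes in each fraction when no minimum level was set. With so few siControl reads, the size of these folds rests on the siControl libraries, and leaving out 1 of them at a time gave 6.76 to 7.25 in CB and 6.70 to 7.26 in Ps. In bulk RNA, a rise in each cell and a larger number of cells with the RNA cannot be told apart.

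**Figure D1:**
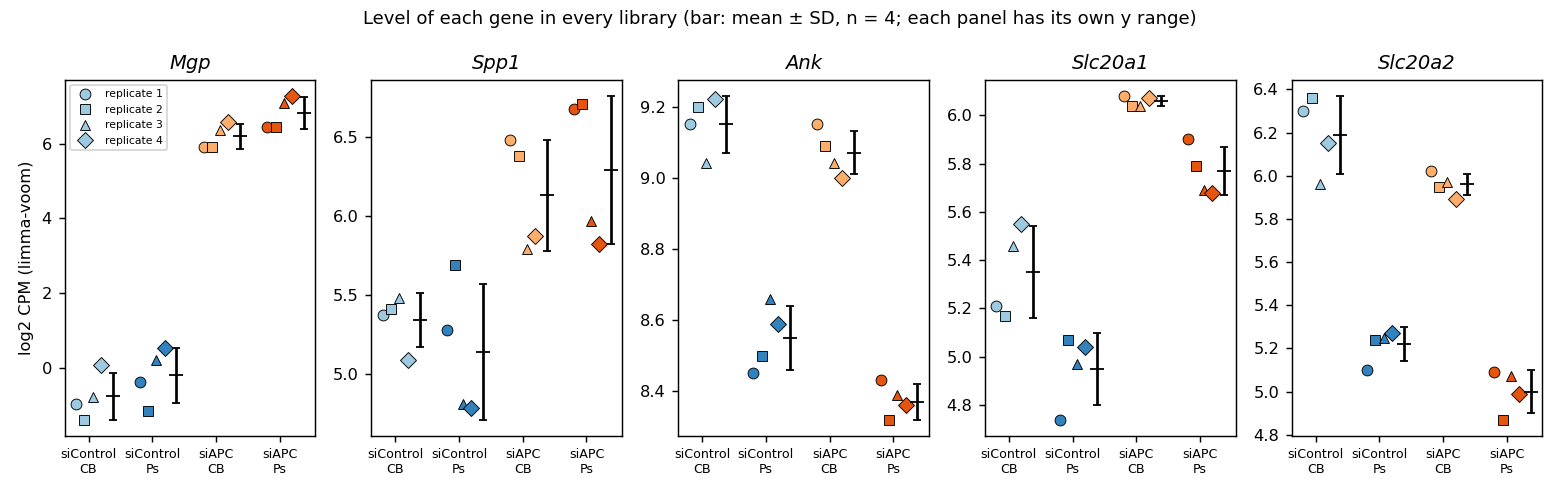
Log2 CPM of each listed member in the 16 libraries, with 1 panel per gene, the 4 groups on the x axis and marker shapes for replicate numbers. Horizontal ticks with bars give the mean and SD of 4 libraries, and y ranges differ between panels. The siAPC values of Mgp sit between 5.92 and 7.28, above the siControl values of -1.39 to 0.53.

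Between fractions, Mgp was higher in Ps than in CB in 4 of 4 same-numbered pairs of each siRNA, by a smaller amount. In siControl equal numbers are not known to pair samples, and CB replicate 4, at 0.07, lay above Ps replicates 1 and 2. The Ps/CB difference was 0.57 (SE 0.32, 95% interval -0.11 to 1.25) in siControl, with single pairs from 0.23 to 0.99. In siAPC, where reads were plentiful, it was 0.62 (SE 0.32, 95% interval -0.06 to 1.30), with pairs from 0.52 to 0.71. With the replicate block, in siAPC the fit in which equal numbers deviated together, the same 0.62 had an SE of 0.12. In siControl the value ranged from 0.27 with scaling to total reads to 1.11 with array weights, with 0.88 when the 4 libraries with falling GC trends were omitted. In siAPC it was 0.46 with scaling to total reads. The log2(Diff FC), the siAPC minus the siControl Ps/CB difference, was 0.05 (SE 0.46, 95% interval -0.91 to 1.01) and was positive in 2 of 4 pairs. Its sign turned with array weights (-0.38), without the 4 libraries with falling GC trends (-0.24) and with replicates 3 and 4 alone (-0.02). It also turned with single libraries left out, where the value ranged from -0.27 without siControl Ps replicate 2 and -0.23 without siControl CB replicate 4 to 0.29 without siControl Ps replicate 4, so no direction is given. The order of the group levels was siAPC Ps, siAPC CB, siControl Ps and siControl CB, and neighbours of the same siRNA overlapped while siAPC CB and siControl Ps did not.

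Spp1 (ENSMUSG00000029304.14, chr5:104435118-104441050, plus strand) was well expressed in control cells and higher in siAPC. Its log2 CPM was 5.37, 5.41, 5.48 and 5.09 in siControl CB (mean 5.34 ± 0.17, SD, n = 4) and 5.28, 5.69, 4.81 and 4.78 in siControl Ps (mean 5.14 ± 0.43, SD, n = 4). In siAPC it was 6.48, 6.38, 5.79 and 5.87 in CB (mean 6.13 ± 0.35, SD, n = 4) and 6.68, 6.71, 5.97 and 5.82 in Ps (mean 6.29 ± 0.47, SD, n = 4). Within each fraction the siAPC and siControl values did not overlap, although replicate 2 of siControl Ps, at 5.69, came near replicate 4 of siAPC Ps, at 5.82. In Ps, Spp1 rose by 1.15 (SE 0.22, 2.22-fold, limma adjusted p = 0.000689), in 4 of 4 same-numbered comparisons. In CB the difference was 0.79 (SE 0.22, 4 of 4 comparisons, not tested). Spp1 did not pass the test between fractions, with a Ps/CB difference of -0.20 in siControl (95% interval -0.65 to 0.26, adjusted p = 0.45) and 0.16 in siAPC (95% interval -0.29 to 0.62, adjusted p = 0.531). With replicates 3 and 4 alone, an alternative chosen after seeing the data, the siControl difference was -0.48 (limma adjusted p = 0.00264), and with replicates 1 and 2 alone it was 0.09 (adjusted p = 0.487).

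Ank (ENSMUSG00000022265.7, chr15:27466677-27594909, plus strand), the pyrophosphate exporter, was lower in Ps than in CB under both siRNAs. The siControl CB values were 9.15, 9.20, 9.04 and 9.22 and the siControl Ps values 8.45, 8.50, 8.66 and 8.59. The siAPC CB values were 9.15, 9.09, 9.04 and 9.0 and the siAPC Ps values 8.43, 8.32, 8.39 and 8.36. No Ps library reached any CB library. Ank fell in Ps relative to CB by 0.60 in siControl (SE 0.06, adjusted p = 6.42e-08) and by 0.70 in siAPC (SE 0.06, adjusted p = 1.25e-08), in 4 of 4 pairs each, as limma measured it. In Ps, siAPC was lower than siControl by a small amount, -0.18 (SE 0.06, limma adjusted p = 0.0387, 95% interval -0.30 to -0.05), and the groups did not overlap. That call held under 16 of 28 alternatives. It was lost when libraries were scaled to total reads, where the difference was -0.01 and the median of all genes moved to 0.14, and with quantile normalization (-0.09, limma adjusted p = 0.194). In CB the siAPC values overlapped those of siControl, with a difference of -0.08 (SE 0.06, not tested). The gene overlaps Otulin on the opposite strand, with no shared exonic bases.

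Of the phosphate transporters, Slc20a1 was higher with siAPC, while Slc20a2 had lower means that did not pass the test. Slc20a1 (ENSMUSG00000027397.14, chr2:129198764-129211616, plus strand) had log2 CPM of 5.21, 5.17, 5.46 and 5.55 in siControl CB and 4.74, 5.07, 4.97 and 5.04 in siControl Ps. In siAPC it was 6.08, 6.04, 6.04 and 6.07 in CB and 5.90, 5.79, 5.69 and 5.68 in Ps. Every siAPC library was above every siControl library. Slc20a1 rose in Ps by 0.81 (SE 0.09, 1.75-fold, limma adjusted p = 2.12e-06, 4 of 4 comparisons), and in CB it was higher by 0.71 (SE 0.09, 4 of 4 comparisons, not tested). It was lower in Ps than in CB, by limma, with a Ps/CB difference of -0.39 in siControl (SE 0.09, adjusted p = 0.000806) and -0.29 in siAPC (SE 0.09, adjusted p = 0.008), in 4 of 4 pairs each. The siAPC call was lost under quantile normalization, where the difference was -0.21 (adjusted p = 0.0515), and with replicates 1 and 2 alone (adjusted p = 0.096).

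Slc20a2 (ENSMUSG00000037656.9, chr8:22476788-22569612, plus strand) was the member with the largest Ps/CB difference. Its log2 CPM was 6.30, 6.36, 5.96 and 6.15 in siControl CB and 5.10, 5.24, 5.25 and 5.27 in siControl Ps. In siAPC it was 6.02, 5.95, 5.97 and 5.89 in CB and 5.09, 4.87, 5.07 and 4.99 in Ps. No Ps library overlapped a CB library. Slc20a2 fell in Ps relative to CB by 0.97 in siControl (SE 0.08, adjusted p = 5.21e-09) and by 0.96 in siAPC (SE 0.08, adjusted p = 8.9e-09), as limma measured it. Between siRNAs the differences were -0.21 in Ps (SE 0.08, limma adjusted p = 0.0641, not called) and -0.23 in CB (SE 0.08, not tested), and in CB the groups overlapped. Slc20a2 was called in Ps with quantile normalization (-0.20, adjusted p = 0.0389), with array weights (-0.21, adjusted p = 0.0151), without siControl CB replicate 3 (-0.21, adjusted p = 0.0224) and without siControl Ps replicate 1 (-0.25, adjusted p = 0.0463). Smim19, on the opposite strand, and Gm17491 lie within the locus and are listed genes, and 95 exonic bases are shared with them.

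**Figure D2:**
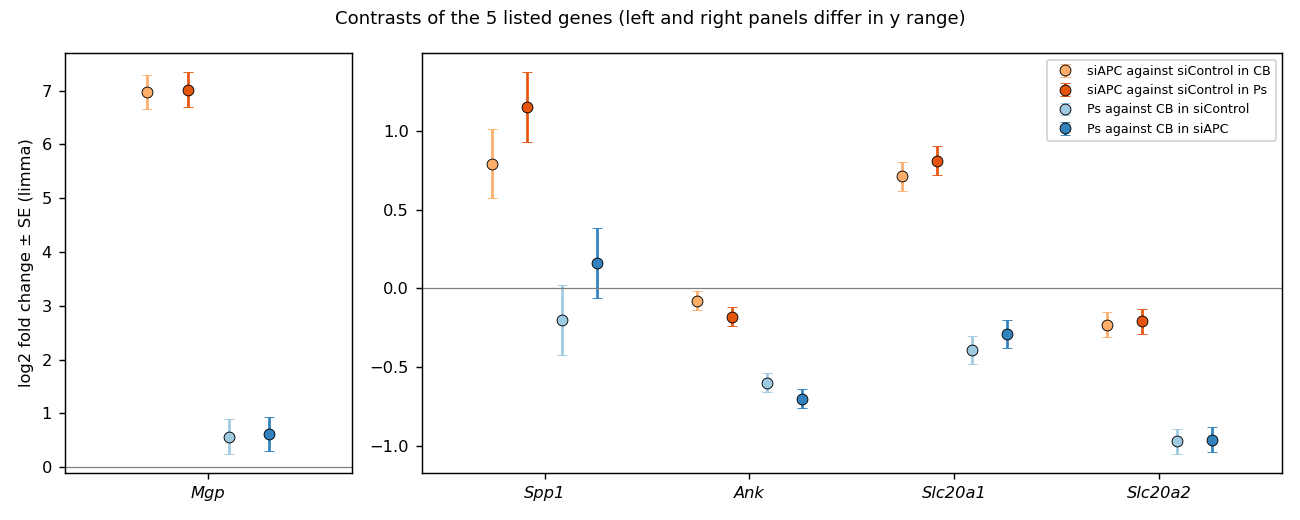
Log2 fold changes of the 5 listed members from limma, with bars for 1 SE, for siAPC against siControl in each fraction and for Ps against CB in each siRNA. Mgp has its own panel and y range. Spp1 and Slc20a1 lie above 0 for siAPC against siControl, and Ank, Slc20a1 and Slc20a2 lie below 0 for Ps against CB.

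The ratio of the transporters within a library needs no scaling between libraries. It was not among the planned contrasts, and results of the same libraries were already known. The log2 ratio of Slc20a1 to Slc20a2 reads was -1.09, -1.19, -0.50 and -0.59 in siControl CB (mean -0.84 ± 0.35, SD, n = 4) and 0.06, 0.08, 0.07 and 0.18 in siAPC CB (mean 0.10 ± 0.06, SD, n = 4). In Ps it was -0.36, -0.18, -0.28 and -0.23 in siControl (mean -0.26 ± 0.08, SD, n = 4) and 0.81, 0.92, 0.62 and 0.70 in siAPC (mean 0.76 ± 0.13, SD, n = 4). Reads of Slc20a2 exceeded those of Slc20a1 in every siControl library, and the reverse held in every siAPC library. The siAPC minus siControl difference was 1.02 in Ps (p = 0.0286 by exact permutation, two-sided, the lowest value that 4 against 4 libraries allow, and p = 0.125 by exact sign flips within the 4 same-numbered pairs, likewise the lowest value possible) and 0.94 in CB (not tested). In Ps the groups did not overlap, so both exact tests could give only these lowest values. Per kilobase of exon the mean log2 ratio went from -0.69 to 0.25 in CB and from -0.11 to 0.92 in Ps, so the order of the transporters per length also turned.

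**Figure D3:**
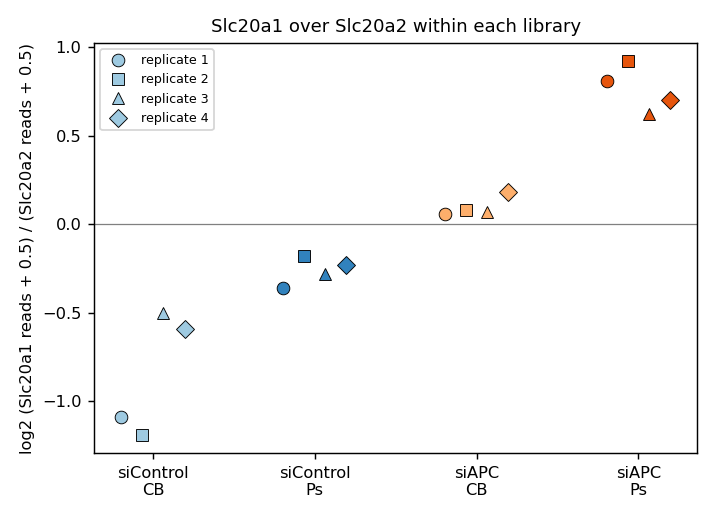
Log2 ratio of Slc20a1 to Slc20a2 reads in each of the 16 libraries, by group on the x axis, with marker shapes for replicate numbers. The 8 siControl libraries lie below 0 and the 8 siAPC libraries lie above it.

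Compared per kilobase of exon on the log2 CPM scale, the order of the member levels differed between siRNAs. In siControl CB the mean level was 7.30 for Ank, 4.62 for Spp1, 3.55 for Slc20a2, 2.87 for Slc20a1 and -1.01 for Mgp. In siAPC CB it was 7.22 for Ank, 5.95 for Mgp, 5.41 for Spp1, 3.58 for Slc20a1 and 3.32 for Slc20a2. In siAPC Ps the means of Mgp, 6.57, and Ank, 6.52, lay within the spread of the Mgp libraries. Mgp was thus the lowest of the 5 members in siControl CB and was exceeded only by Ank in siAPC CB.

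Read against all genes, the member counts were as follows. Of the 4 members tested for Ps against CB, 3 fell and 0 rose in siControl, where 31.2% of all genes fell and 29.1% rose. In siAPC the counts were the same, beside 30.9% and 29.8%. For siAPC against siControl in Ps, 2 members rose (Spp1 and Slc20a1) and 1 fell (Ank), while 10.7% of genes rose and 11.2% fell. In CB, where the choice of Mgp was made, 7.52% of genes rose and 5.87% fell. These shares depend on the scaling. With scaling to total reads, 2005 of the 13015 genes rose and 6193 fell for Ps/CB in siControl, with 2793 and 5114 in siAPC. For siAPC against siControl in Ps, 2943 rose and 550 fell under that scaling. For log2(Diff FC), 0 members passed limma's test in either direction, and over all genes 0% were higher and 0.0231% lower at an adjusted p below 0.05, with 269 higher and 223 lower at an unadjusted p below 0.05. The members' log2(Diff FC) was 0.36 for Spp1 (95% interval -0.28 to 1.00), -0.10 for Ank (-0.27 to 0.08), 0.10 for Slc20a1 (-0.16 to 0.36) and 0.02 for Slc20a2 (-0.22 to 0.25). Between same-numbered pairs the difference was positive in 4 of 4 for Spp1, 0 of 4 for Ank, 3 of 4 for Slc20a1 and 2 of 4 for Slc20a2. Equal numbers are not known to pair samples in siControl or in CB, so these counts do not measure agreement between replicates.

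Beyond the members, lists of related genes were counted over genes with a mean log2 CPM of at least 1, fitted alone. This was done because a gene near 0 reads in siControl could enter the table only through its siAPC reads. The mean was taken over all 16 libraries, so siAPC could still carry a gene past it, as with Dcn below. Of 19 genes tied to vitamin K dependent carboxylation, receptors such as Tyro3 included, 13 were listed and 11 reached that mean. In Ps 3 of the 11 rose and 0 fell with siAPC (median 0.01, against -0.04 over all 10292 genes at that mean), beside 10.9% of those genes that rose and 14.2% that fell. In CB 3 rose and 1 fell (median 0.07, against -0.05), beside 7.49% and 7.42%. The CB count rests on single libraries. Over all 13 listed genes it was 4 higher, but 1 without siAPC CB replicate 4 and 2 without siAPC CB replicate 1, 2 or 3 or siControl CB replicate 2 or 3. The single fall was lost without any 1 of the 4 siAPC CB libraries or of siControl CB replicates 3 and 4. Mertk, a receptor kinase among the listed genes, had 0 to 3 reads in the siControl CB libraries and 0 to 1 in siControl Ps. It is counted among the 13 but not among the 11, and its part in the 4 is no test. Ggcx, the carboxylase itself, had a mean log2 CPM of 5.81 in siControl CB and 5.67 in siAPC CB (difference -0.14, adjusted p = 0.374 by limma). Vkorc1, which recycles vitamin K, had a difference of -0.20 in CB (adjusted p = 0.254) and -0.28 in Ps (adjusted p = 0.0739). The genes that rose in Ps included Tyro3, a receptor for vitamin K dependent ligands, by 0.64 (SE 0.08, limma adjusted p = 6.75e-06). Nqo1, a quinone reductase, rose there by 0.59 (SE 0.17, adjusted p = 0.0178) and Prrg2, a membrane Gla protein, by 0.52 (SE 0.14, adjusted p = 0.00983). Pros1, the protein S gene, fell in CB by 0.49 (SE 0.15, limma adjusted p = 0.035). Gas6 and the osteocalcin genes Bglap, Bglap2 and Bglap3 were not listed. Between fractions, 7 of the 11 fell in siControl Ps relative to CB and 1 rose, beside 35.8% and 32.3% of all genes at that mean, with Ggcx at -1.57 (SE 0.09, adjusted p = 1.23e-10) and Furin, the protease that cleaves many proproteins, at -0.92 (SE 0.10, adjusted p = 2.87e-07), and the gene that rose was Vkorc1, by 0.32 (adjusted p = 0.0147).

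Among genes tied more or less closely to phosphate and pyrophosphate handling, with Fgfr1, Abcc1 and Smpd3 among them, 16 of 28 were listed, members left out. Among the 12 with a mean of at least 1, 1 rose with siAPC in each fraction, while 0 fell in CB and 1 fell in Ps. The shares over all genes at that mean were 7.49% higher and 7.42% lower in CB and 10.9% and 14.2% in Ps. Alpl and Abcc6 were also higher but had almost no siControl reads and entered the table through siAPC, so they are described with no test. Alpl, the tissue-nonspecific alkaline phosphatase that hydrolyses pyrophosphate, had 0 reads in all 8 siControl libraries. It had 9, 8, 6 and 15 reads in siAPC CB and 16, 10, 17 and 24 in siAPC Ps. Set against a floor of 3 reads over each siControl group, Alpl was at least 12.3-fold higher in siAPC CB and at least 20.4-fold higher in siAPC Ps. Abcc6, a transporter needed for ATP release from the liver, had 2, 1, 4 and 2 reads in siControl CB and 34, 16, 27 and 27 in siAPC CB, a ratio of 11.3 with a 95% counting interval of 5.71 to 25.3. In Ps, Abcc6 had 1, 0, 1 and 0 reads in siControl and 19, 12, 19 and 21 in siAPC, a ratio of 32.5 with an interval of 8.67 to 274 that rests on 2 siControl reads. These intervals cover counting error only and are no test of the siRNAs. Ppa1, a cytosolic pyrophosphatase, rose by 0.30 in Ps (SE 0.07, limma adjusted p = 0.0035) and 0.21 in CB (adjusted p = 0.0451), and Smpd3, a sphingomyelinase tied to skeletal mineralization, fell by 0.36 in Ps (SE 0.11, adjusted p = 0.023). The count of genes that fell in Ps was 0 without siControl Ps replicate 4, siAPC Ps replicate 2 or siAPC Ps replicate 3, and 2 without siControl CB replicate 3. Xpr1, the phosphate exporter, had differences of -0.06 in Ps and -0.19 in CB (adjusted p = 0.824 and 0.423). Between fractions, Ppa1, Ppa2 and Lhpp rose in siControl Ps relative to CB (0.52, 0.50 and 0.40) and 7 of the 12 genes fell, beside 32.3% of all genes at that mean that rose and 35.8% that fell. Among the 7 were Fgfr1 (-1.20), Abcc1 (-1.10) and Smpd3 (-1.07).

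Of 32 bone matrix and calcium-binding proteins 16 were listed, 14 of them with a mean of at least 1. With siAPC 12 of the 14 rose and 0 fell in Ps (median 0.40, against -0.04 over all genes at that mean), with 10 and 0 in CB (median 0.36, against -0.05). These counts include Dcn, whose siControl mean was 0.82 in each fraction and which reached a mean of 1 only through siAPC. Omd and Aspn, which encode further small leucine-rich proteins, were left out of the counts, with siControl reads of 0 to 8 and 0 to 7 per library. Fetub and Lox did not pass in either fraction, with Lox at -0.34 in CB (limma adjusted p = 0.25), and Timp3 and Fbn1 did not pass in CB. Beside these counts 10.9% of all genes at that mean rose in Ps and 7.49% in CB, and the fibroblast markers, which share Col1a1 and Col1a2 with this list, were also higher in every siAPC library than in the siControl libraries of the same fraction. Fmod, Dcn, Ogn and Bgn encode small leucine-rich proteoglycans. Fmod (fibromodulin) went from a mean log2 CPM of 2.09 to 5.49 in CB and from 1.33 to 4.88 in Ps (difference 3.55, SE 0.18, limma adjusted p = 4.19e-11). Dcn (decorin) went from 0.82 to 3.72 in CB and from 0.82 to 3.92 in Ps (difference 3.10, SE 0.20). Its difference is given as a description with no p-value, since only siAPC took it past the minimum mean. Ogn (osteoglycin) rose by 1.96 in Ps (SE 0.34, adjusted p = 0.000334) and Bgn (biglycan) by 0.26 (SE 0.09, adjusted p = 0.0384). Thbs1, which encodes the matricellular protein thrombospondin 1, rose by 2.38 in CB and 2.02 in Ps (limma adjusted p = 4.53e-11 and 4.53e-10). Sparc (osteonectin) rose by 0.34 in Ps (adjusted p = 0.00124), and the collagen genes Col1a1 and Col1a2 rose by 0.45 and 0.43 in Ps (adjusted p = 0.0055 and 0.00217). Of the mineral-binding genes closest to Spp1 by family, Ibsp, Dmp1, Mepe and Dspp were not listed. Between fractions in siControl, 8 of the 14 fell and 2 rose in Ps relative to CB, beside 35.8% and 32.3% of all genes at that mean. The genes that rose were Bgn (0.56, adjusted p = 1.57e-05) and Ogn (0.90, adjusted p = 0.0288), and 1 rose without siControl CB replicate 1, 2 or 4 or siControl Ps replicate 1 or 2.

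Of 17 receptors and processing enzymes of osteopontin 11 were listed, 10 of them with a mean of at least 1. In each fraction 2 of the 10 rose and 0 fell, beside 7.49% of all genes at that mean that rose in CB and 10.9% in Ps. They were Itgb5, an integrin β subunit, by 0.67 in Ps (SE 0.07, limma adjusted p = 1.2e-06), and Plau, the urokinase gene, by 0.80 in Ps (SE 0.20, adjusted p = 0.00689). Cd44, a hyaluronan receptor that also binds osteopontin, had differences of -0.01 in CB and 0.01 in Ps (adjusted p = 0.972 and 0.971). Itgav, whose product pairs with integrin β3 and β5, had -0.15 and 0.21 (adjusted p = 0.549 and 0.353), and Itgb3 had 0.05 in each fraction. In siControl 8 of the 10 fell in Ps relative to CB and 0 rose, beside 35.8% and 32.3% of all genes at that mean, led by Itga5 (-1.31, adjusted p = 1.28e-10) and Plat (-1.12, adjusted p = 0.000307), with a list median of -0.69 against -0.03 over those genes.

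Osteoblast and chondrocyte regulators were represented by 16 of 27 genes, and 13 reached a mean of 1. With siAPC 2 of these rose in CB and 4 in Ps, and 0 fell in either fraction, beside 7.49% of all genes at that mean that rose in CB and 10.9% in Ps. Over all 16 listed genes the Ps count was 5, and it was 3 without siControl Ps replicate 1 or siAPC Ps replicate 2. Twist1, a mesenchymal transcription factor, rose by 0.53 in CB and 0.75 in Ps (limma adjusted p = 0.000298 and 3.74e-06). Runx2, which drives osteoblast differentiation, rose by 0.37 and 0.61 (adjusted p = 0.00061 and 1.74e-06). Col11a1 and Mef2c rose in Ps only by this test, by 0.63 and 0.66 (adjusted p = 0.0256 and 0.0229), with 0.47 and 0.21 in CB, and the difference between fractions did not pass limma for any gene of the list. Sox9, the chondrocyte regulator, had 0.04 in CB and 0.19 in Ps (adjusted p = 0.9 and 0.431). In siControl, 8 of the 13 fell in Ps relative to CB, among them Sox9 (-0.77), beside 35.8% of all genes at that mean. Mef2c (0.64, adjusted p = 0.00946) and Sox6 (0.57, adjusted p = 0.0151) rose, 2 of the 13 beside 32.3%.

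Genes of BMP signalling, the pathway whose ligands matrix Gla protein binds, were represented by 18 of 27, 13 of them with a mean of at least 1. With siAPC 2 of the 13 rose in CB and 3 in Ps, and 0 fell, beside 7.49% and 10.9% of all genes at that mean that rose. Over all 18 listed genes the counts were 4 and 5. Smad6, an inhibitor of BMP signal transduction, rose by 1.05 in CB and 1.31 in Ps (limma adjusted p = 0.00354 and 0.000308), and Acvr1, a type I receptor, by 0.28 and 0.48 (adjusted p = 0.00278 and 9.29e-06). Bmp2, Bmp4, Bmp7, Nog and Grem1 were not listed. Chrd, a BMP antagonist, and Bmp1, the protease that cleaves chordin, showed no call between siRNAs and both fell in siControl Ps relative to CB by 1.17 (adjusted p = 8.53e-09 and 1.57e-11). In all, 7 of the 13 fell and 0 rose in that contrast, beside 35.8% and 32.3% of all genes at that mean, and over all 18 listed genes 2 rose without siControl CB replicate 3.

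**Figure D4:**
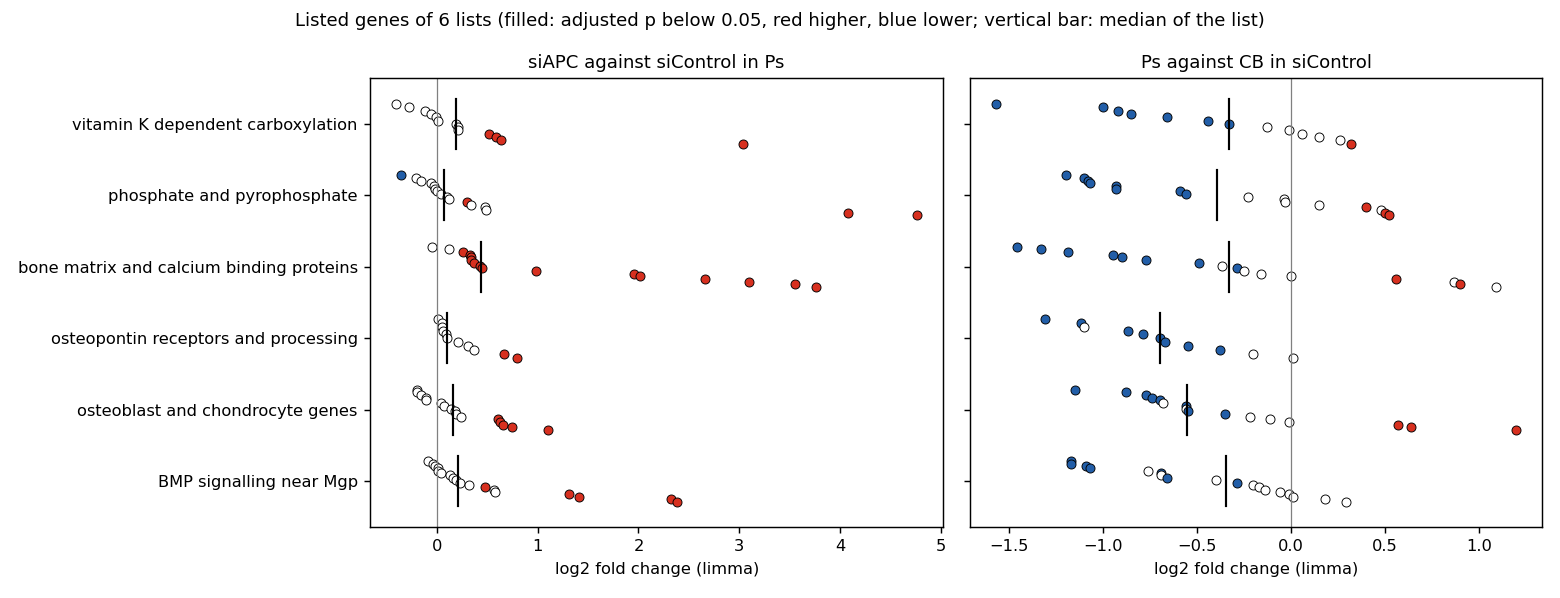
Log2 fold changes of the listed genes of 6 lists, 1 point per gene, for siAPC against siControl in Ps on the left and Ps against CB in siControl on the right. Filled points had an adjusted p below 0.05 by limma, and vertical bars give the list medians. Fitted values of genes near 0 reads in siControl, such as Alpl, Abcc6, Mertk, Omd and Aspn, are not bounds. In the left panel the fill of these genes and of Dcn is no test, since their levels come mainly from siAPC. Of the 14 bone matrix genes with a mean of at least 1, 12, Dcn included, are filled on the right side of 0 in the left panel.

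The genes whose levels followed Mgp most closely over the 16 libraries, by Pearson's r among 9963 genes, were Lypd2 (0.99), Pmepa1 (0.989), Aldh1a1 (0.988), Serpina3h (0.985), Selenbp1 (0.985), Cdh26 (0.983), Tg (0.982) and Clec3b (0.98). All of them were higher in siAPC, from 1.16 for Serpina3h to 6.50 for Aldh1a1 in CB on the log2 scale. Between fractions they were not alike, since Aldh1a1 had Ps/CB differences of 0.55 and 0.69 in siControl and siAPC, near the 0.57 and 0.62 of Mgp, while Pmepa1 had -0.07 in each. For Spp1 the closest were Wisp1 (0.945), Ifrd1 (0.911) and Sdc2 (0.906), and for Slc20a1 they were Ptn (0.976), Stk38 (0.971) and Pla1a (0.966). Ank was closest to Smpd3 and Txndc5 (0.993 each), and Slc20a2 to Emilin2, Txndc5 and Tut1 (0.992 each). Among members, Ank and Slc20a2 had r = 0.986 over the 16 libraries, points that share libraries and differ mainly by fraction. These are descriptions, with groups and libraries shared by all points.

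Within groups, Mgp and Spp1 ran in opposite directions although both were higher in siAPC. Over all 16 libraries their r was 0.749, and after each group mean was subtracted it was -0.865. Of 9962 genes, 18, Spp1 included, had a within-group r with Mgp at or below that value (0.181%), and the relation was noticed after the values were seen. Mgp was higher in replicates 3 and 4 than in replicates 1 and 2 in 4 of 4 groups, which held for 1.83% of all genes. Spp1 was lower in replicates 3 and 4 in 3 of 4 groups, all but siControl CB, and 10.1% of genes were lower in at least 3 groups. The Ps/CB difference of Spp1 in siControl was 0.09 in replicates 1 and 2 and -0.48 in replicates 3 and 4. What the replicate numbers mark is not given in the labels, and its part in this pattern was not tested.

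**Figure D5:**
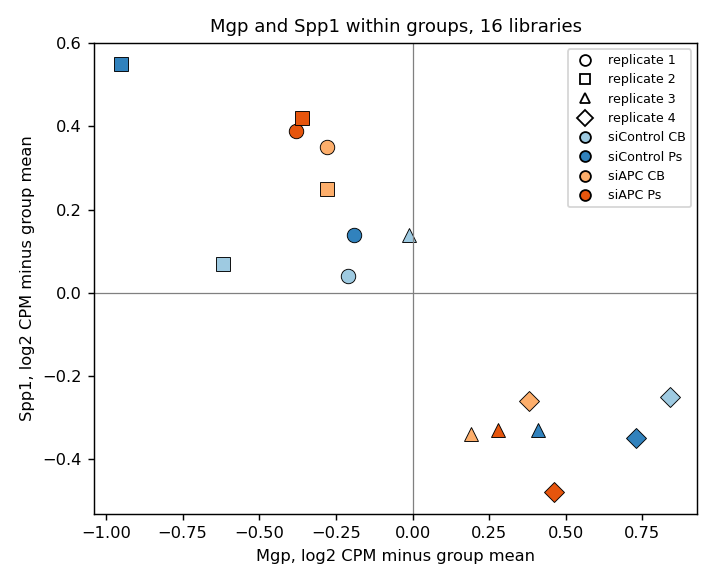
Deviation of Mgp (x axis) and Spp1 (y axis) from their group means in log2 CPM, with 1 point per library, colours for the 4 groups and shapes for replicate numbers. Replicates 1 and 2 fill the upper left, and all replicates 3 and 4 but replicate 3 of siControl CB lie at the lower right.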

How the data were processed

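RNA was sequenced from Ps and CB fractions of NIH/3T3 cells. Per the submitters' processing notes and the methods of the study, the authors used bcl2fastq 1.8.4, aligned reads to mm10 with STAR 2.4.2a, counted genes with Rsubread and normalized with limma-voom (limma 3.26.1), in a stranded protocol whose counting strand is not given in the sources used here. The deposited values are log2 CPM, that is, reads plus 0.5 over an effective library size. Inverting this gave whole reads (within 0.01) for 100% of 208240 values. Groups followed the labels, with 4 replicates each, which the study calls independent.

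The main test was limma 3.58.1 (R 4.3.3, intensity trend, no block) on all 16 libraries, with calls at an adjusted p below 0.05. Tests on simulated data preceded its use. The members and lists were chosen with earlier results of these data known. Named list genes were, per list and contrast, up to 3 highest and 3 lowest called changes with a mean log2 CPM of at least 1, plus Ggcx, Vkorc1, Alpl, Abcc6, Xpr1, Sparc, Cd44, Itgav and Runx2. List counts and their medians came from the fit on genes with a mean log2 CPM of at least 1, values of single genes from the fit on all genes. Markers were summed as CPM. Same-numbered libraries deviated together (Pearson's r over 10292 genes) in siAPC CB and Ps (0.416 to 0.617) and in Ps of both siRNAs (0.162 to 0.551). Alternatives covered scaling, filters, pseudocount, weights, the replicate block and libraries left out. Likeness excluded predicted genes and pseudogenes.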

Additional observations from a re-analysis of the deposited data

Results flagged for a closer look

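Of 20 groups of 4 libraries tested for a library far from the others, 5 members in 4 groups, 1 was flagged, and chance flags about 5% of groups. The level of Slc20a2 in siControl Ps replicate 1 was 5.10 log2 CPM, while the other replicates of that group were at 5.24, 5.25 and 5.27. Its gap to the nearest library was 0.84 of the range of the group, above Dixon's critical value for 4 libraries. Without this library, the siAPC over siControl difference of Slc20a2 in Ps was -0.25 in place of -0.21, and it passed the test (limma adjusted p = 0.0463 in place of 0.0641).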

How the results depend on the processing

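Each contrast was recomputed under up to 28 alternatives. The rises of Spp1 (1.01 to 1.34) and Slc20a1 (0.68 to 0.98) in Ps with siAPC and the Ps/CB falls of Ank and Slc20a2 kept direction and side of the threshold under all alternatives run for them. The number of tested members that fell in Ps with siAPC was 1, and it was 0 with scaling to total reads, without the intensity trend, with only the groups of the comparison and with replicates 1 and 2 alone (added after seeing the data), 2 with array weights, and 0 to 2 with 1 library left out. The cause was not tested. The value 2 came without siControl CB replicate 3 or siControl Ps replicate 1, and 0 without siControl Ps replicate 3 or 4, siAPC CB replicate 2 or 3, or siAPC Ps replicate 2, 3 or 4. With quantile normalization the count stayed at 1 but Slc20a2 was called in place of Ank. Ank ranged from -0.25 to -0.01 and Slc20a2 from -0.25 to -0.05 over all alternatives. Scaling to total reads moved the median of all genes to -0.30 and -0.14 for Ps/CB in siControl and siAPC, 0.14 for siAPC in Ps and 0.15 for log2(Diff FC), from 0, 0.01, -0.02 and 0. Signs turned in values that were not called: Ps/CB of Spp1 in siControl, 0.09 with replicates 1 and 2 alone, and log2(Diff FC) of Mgp, which reached -0.38 with array weights and ranged from -0.27 to 0.29 with 1 library left out, of Ank, 0.05 with total reads and 0.02 with quantile normalization, of Slc20a1, -0.04 with array weights, and of Slc20a2, -0.11 with replicates 3 and 4 alone and -0.04 to 0.10 with 1 library left out.

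With the replicate block, Spp1 in Ps was 1.15 (SE 0.11, limma adjusted p = 6.65e-06), Ank -0.18 (adjusted p = 0.0357) and Slc20a2 -0.21 (adjusted p = 0.057), and the block changed no call on a member. Same-numbered libraries did not all deviate together in siControl CB and Ps (r from -0.121 to 0.432) or in CB of both siRNAs (-0.336 to 0.269), so there the numbers are not known to pair samples.

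Over all listed genes, list counts moved by over 1.5 times as follows, as ranges over the alternatives. These counts include genes with almost no siControl reads, such as Alpl, Abcc6 and Mertk, and siAPC calls on such genes are no test. The lowest counts of phosphate and BMP genes higher with siAPC came with the minimum mean, which leaves out genes below it. For siAPC in CB, vitamin K genes were 1 to 4 higher and 0 to 3 lower, phosphate genes 1 to 3 and 0 to 2, BMP genes 2 to 6 and 0 to 2. Bone matrix genes and osteoblast and chondrocyte genes were 0 to 1 lower and osteopontin receptors 0 to 2 lower. In Ps, vitamin K genes were 2 to 5 higher and 0 to 3 lower, phosphate genes 1 to 4 and 0 to 3, osteopontin receptors 1 to 3 higher, osteoblast and chondrocyte genes 2 to 6 higher and 0 to 2 lower, and BMP genes 3 to 8 higher. For Ps/CB in siControl, vitamin K genes were 0 to 2 higher, phosphate genes 5 to 9 lower, bone matrix genes 1 to 4 higher, osteoblast and chondrocyte genes 1 to 3 higher, and BMP genes 0 to 2 higher and 5 to 11 lower. The few siControl reads of Mgp, Alpl and Abcc6 limit the precision of their folds.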
